A study of Mus musculus with 6 samples.

Results

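The genes described here are 10 transcription factors and co-factors of the B lineage: Ebf1, Pax5, Tcf3, Foxo1, Ikzf1, Ikzf3, Bach2, Lef1, Spib and Pou2af1. They were taken by symbol from a deposited table of 27761 genes, each symbol matched 1 row, and all 10 passed the expression filter, as did 12953 genes in all. RNA came from mouse bone marrow cells carrying B220, the form of CD45 (gene Ptprc) found on B-lineage cells from the pro-B stage on and on plasmacytoid dendritic cells. There were 3 libraries labelled PELI2 knockout, titled CKO, and 3 WT libraries. The driver of the deletion, the strain, the age of the mice and any pooling are not given in the sources used here. Values are FPKM, reads scaled to transcript length and library size, so levels can be set side by side between genes.

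The libraries labelled PELI2 knockout did not show less Peli2 RNA. Peli2 encodes a Pellino protein, a ubiquitin ligase that acts below innate immune receptors. Its row, which does not separate exons, held 3.07, 2.70 and 2.47 FPKM in libraries labelled PELI2 knockout and 2.03, 2.54 and 1.99 FPKM in WT libraries. The groups overlapped, and the two-sided exact permutation p was 0.2, where 3 against 3 libraries cannot go below 0.1. Every direction below is therefore that of the label. Depth, read from the steps between low values, was 17000000 to 18100000 reads in the libraries labelled PELI2 knockout and 16600000 to 17800000 in WT libraries. Of the 6 genes used here to define B cells, among them Cd79a, Cd79b, Ms4a1, Cd22 and Ptprc, each was well above the filter of 1 FPKM, and genes of granulocytes and red cells were also measured in every library. Whether the replicates came from different mice is not labelled, so p-values measure only the spread between these libraries.

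B cell development is driven by a small network of DNA-binding proteins. Tcf3, whose products are the E2A proteins E12 and E47, and Ebf1 open the programme, Foxo1 works with them, and Pax5 then commits the cell to the lineage. Ikaros proteins, Bach2, Lef1, Spi-B and the octamer co-activator OCA-B, the product of Pou2af1, act around and after these steps.

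All 10 factors had a lower mean in the libraries labelled PELI2 knockout, and for all 10 every library labelled PELI2 knockout lay below every WT library. The ratio of mean FPKM ran from 0.685 for Lef1 to 0.877 for Ikzf1. Over all tested genes, 25.8% had groups apart, 14.3% in that direction and 11.5% in the other. No factor passed limma at an adjusted p under 0.05 over all genes, where 0.0232% of tested genes did, all of them higher. At an unadjusted p under 0.05, 8 of the 10 were lower and 0 higher, against a background of 8.88% of tested genes lower and 9.2% higher. The median log2 fold change, on log2(FPKM + 1), was -0.37 over the 10 and -0.01 over all tested genes. In bulk RNA, fewer cells of a type and less RNA per cell cannot be told apart.

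**Figure D1:**
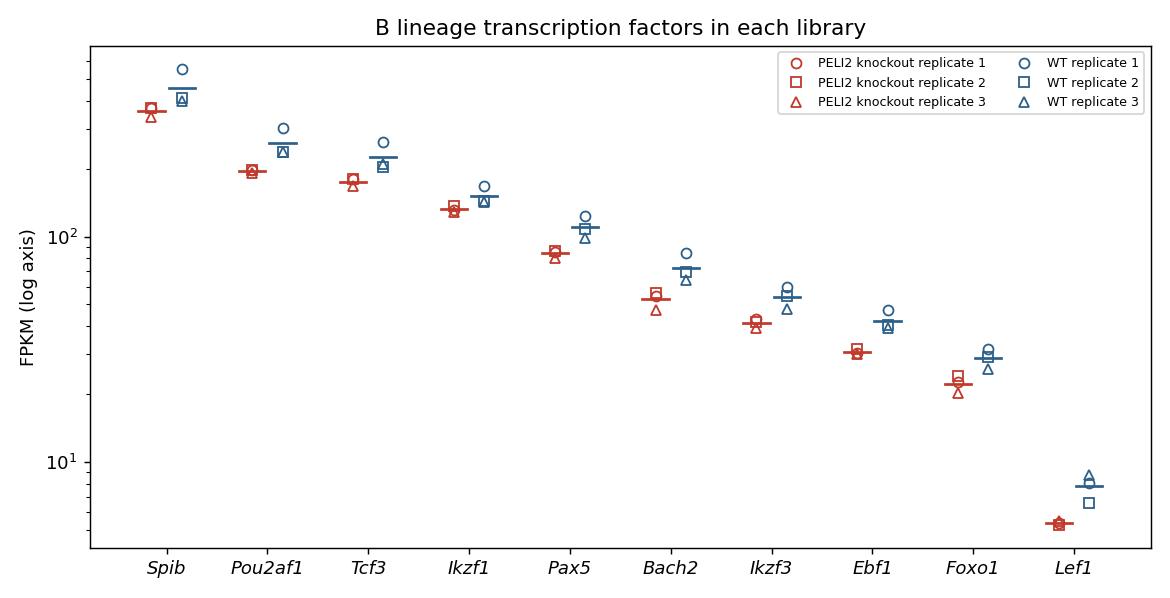
FPKM of the 10 factors in each library on a log axis, ordered by level, with PELI2 knockout in red on the left of each pair and WT in blue on the right; symbols mark the replicate number and bars the group mean. No factor's groups overlap, and WT replicate 1 (blue circle) is the highest library for 9 of the 10.

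The order of the levels was the same in all 6 libraries. Spib stood highest and Lef1 lowest, with Pou2af1, Tcf3, Ikzf1, Pax5, Bach2, Ikzf3, Ebf1 and Foxo1 between them in that order. Ranges of neighbours in this order did not overlap within either group, except Pou2af1 and Tcf3 in WT libraries. By mean FPKM over the 6 libraries, Spib ranked 78 and Lef1 7097 among the 12953 tested genes. At the depths found, Lef1 rested on 89.5 to 151 reads per kilobase of transcript in a library.

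Promoter sequence was read from RefSeq on GRCm38.p6 as 250 bases before to 50 bases after an annotated start, and 9 of the 10 factors had 14 such windows between them. Ikzf3 had none. Short motifs of most of the factors' own families, and TATAAA, were searched on both strands. No motif for Pax5 or Bach2 was searched. The EBF letters CCCNNGGG occurred in 3 of the 14 windows, of Foxo1, Ikzf1 and Spib, and in 13.7% of all 32851 windows. These 3 windows were 61.3%, 81.3% and 58% G and C, beside a median of 52.7% over all windows. The E2A letters CAGGTG occurred in 1 (Lef1; 20.2% of all windows), the ETS letters GGAAGT in 3 (Ebf1, Lef1 and Tcf3; 23.8%), and the Ikaros letters TGGGAA in 4, of Ebf1 and Lef1 (25.6%). The octamer ATGCAAAT (1.74%), the FOXO letters GTAAACA (3.65%) and the LEF letters ATCAAAG (3.73%) were in none of the 14. TATAAA was in 1 window, of Lef1, and in 13.6% of all windows. A match is a stretch of letters and not a bound site. Windows of a gene can overlap, and 2 of the Lef1 windows hold the same Ikaros match. The 4 windows below are the 3 that hold EBF letters and the window of Ebf1 itself that holds matches, with each match in capitals. The windows of Lef1 and Tcf3 with the matches counted above are not printed. The Ikaros and ETS matches of Ebf1 start 207 and 56 bases before the start. The EBF matches start 91 bases before it in Foxo1 and 56 bases before it in Ikzf1, and in Spib 2 overlapping EBF matches start 65 and 64 bases before it. The windows are chr11:44619978-44620277 (plus strand) for Ebf1, chr3:52268087-52268386 (plus) for Foxo1, chr11:11685675-11685974 (plus) for Ikzf1 and chr7:44532022-44532321 (minus) for Spib.
Ebf1: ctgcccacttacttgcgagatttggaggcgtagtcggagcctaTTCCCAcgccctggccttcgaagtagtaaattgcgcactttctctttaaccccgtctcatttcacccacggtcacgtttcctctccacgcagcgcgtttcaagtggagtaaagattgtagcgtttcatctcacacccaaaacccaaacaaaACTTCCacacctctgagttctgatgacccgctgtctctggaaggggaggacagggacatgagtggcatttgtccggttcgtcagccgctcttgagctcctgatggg
Foxo1: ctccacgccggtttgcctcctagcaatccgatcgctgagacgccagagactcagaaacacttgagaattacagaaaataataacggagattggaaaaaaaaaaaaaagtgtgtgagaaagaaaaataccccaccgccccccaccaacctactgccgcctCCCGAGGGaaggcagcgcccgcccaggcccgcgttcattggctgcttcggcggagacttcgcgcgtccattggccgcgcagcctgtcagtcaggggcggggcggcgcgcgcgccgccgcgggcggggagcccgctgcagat
Ikzf1: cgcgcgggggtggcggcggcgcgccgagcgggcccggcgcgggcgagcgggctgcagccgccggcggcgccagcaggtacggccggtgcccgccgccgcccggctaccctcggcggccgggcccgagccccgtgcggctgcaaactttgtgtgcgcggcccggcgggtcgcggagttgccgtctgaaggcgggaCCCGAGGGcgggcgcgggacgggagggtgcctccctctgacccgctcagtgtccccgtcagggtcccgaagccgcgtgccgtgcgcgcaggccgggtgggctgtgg
Spib: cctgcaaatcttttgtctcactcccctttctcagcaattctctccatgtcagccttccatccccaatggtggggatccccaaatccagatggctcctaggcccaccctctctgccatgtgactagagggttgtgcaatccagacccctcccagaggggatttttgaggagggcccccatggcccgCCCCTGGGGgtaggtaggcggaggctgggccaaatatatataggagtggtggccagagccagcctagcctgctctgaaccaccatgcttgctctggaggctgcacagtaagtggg

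Among the factors that open and fix the lineage, Ebf1 had the smallest p of the 10. Ebf1 (ENSMUSG00000057098, GRCm38 chromosome 11, 44617317 to 45008091, plus strand) held 30.4, 31.7 and 30.2 FPKM in libraries labelled PELI2 knockout and 47.3, 40.4 and 39.2 FPKM in WT libraries. The libraries labelled PELI2 knockout were close together, and the gap to the lowest WT library was 7.47 FPKM. Its log2 fold change was -0.44 with a 95% interval of -0.62 to -0.26 and a limma adjusted p of 0.137. Pax5 (ENSMUSG00000014030, chromosome 4, 44524757 to 44710487, minus strand), which keeps cells in the lineage by silencing genes of others, held 85.5, 86.7 and 80.1 FPKM in libraries labelled PELI2 knockout and 123, 108 and 98.7 FPKM in WT libraries. WT replicate 3 was closest to the other group, 12.1 FPKM above its highest library. The log2 fold change of Pax5 was -0.38 (95% interval -0.58 to -0.17, limma adjusted p = 0.151).

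Tcf3 (ENSMUSG00000020167, chromosome 10, 80409514 to 80433647, minus strand) held 179, 179 and 168 FPKM in libraries labelled PELI2 knockout and 261, 204 and 209 FPKM in WT libraries. Much of its WT spread came from replicate 1: the ratio of means was 0.78 with all libraries and 0.848 without it. The log2 fold change was -0.35 (95% interval -0.59 to -0.10, limma adjusted p = 0.188). Foxo1 (ENSMUSG00000044167, chromosome 3, 52268336 to 52353221, plus strand), a forkhead factor held out of the nucleus by PI3K and AKT signalling and needed for Rag gene expression, held 22.6, 24.1 and 20.2 FPKM in libraries labelled PELI2 knockout. WT libraries held 31.7, 29.2 and 25.9 FPKM. The gap between the groups was 1.84 FPKM, and the log2 fold change was -0.36 (95% interval -0.58 to -0.14, limma adjusted p = 0.166).

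The Ikaros family has zinc fingers that bind DNA and others that pair its members. Ikzf1, Ikaros (ENSMUSG00000018654, chromosome 11, 11685003 to 11772926, plus strand), is used in most blood lineages and had the smallest difference of the 10. It held 132, 137 and 129 FPKM in libraries labelled PELI2 knockout and 168, 143 and 142 FPKM in WT libraries. The groups were 4.93 FPKM apart, and the log2 fold change was -0.18 (95% interval -0.37 to 0.00084, limma adjusted p = 0.278). Without WT replicate 1 it was -0.11. Ikzf3, Aiolos (ENSMUSG00000018168, chromosome 11, 98464902 to 98546031, minus strand), which rises as B cells mature, held 43.2, 41.8 and 39.3 FPKM in libraries labelled PELI2 knockout and 59.5, 54.3 and 47.8 FPKM in WT libraries. Its groups were 4.54 FPKM apart, with a log2 fold change of -0.37 (95% interval -0.57 to -0.16, limma adjusted p = 0.153). The table gives 1 value per gene, so the isoforms of Ikaros that lack DNA-binding fingers are not resolved.

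Bach2 and Lef1 had the lowest ratios beside Ebf1. Bach2 (ENSMUSG00000040270, chromosome 4, 32238804 to 32586108, plus strand), a repressor that holds back plasma cell and myeloid genes, held 54.2, 56.4 and 47.5 FPKM in libraries labelled PELI2 knockout and 84.1, 70.0 and 63.9 FPKM in WT libraries. The log2 fold change was -0.45 (95% interval -0.72 to -0.18, limma adjusted p = 0.164). Lef1 (ENSMUSG00000027985, chromosome 3, 131110471 to 131224356, plus strand), a high-mobility-group factor of Wnt signalling found in pro-B, pre-B and T cells, held 5.34, 5.27 and 5.49 FPKM in libraries labelled PELI2 knockout. WT libraries held 8.09, 6.59 and 8.80 FPKM. Lef1 was the exception to the library order: its highest library was WT replicate 3, and its lowest was PELI2 knockout replicate 2. Its log2 fold change was -0.46 (95% interval -0.70 to -0.23, limma adjusted p = 0.142), and without WT replicate 1 its ratio of means moved least of the 10, at 0.697 against 0.685 with all libraries.

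Spib and Pou2af1, the most abundant of the 10, had the widest WT spread relative to their means. Spi-B is an ETS-family relative of PU.1 that B cells and plasmacytoid dendritic cells use. Spib (ENSMUSG00000008193, chromosome 7, 44525993 to 44532071, minus strand) held 370.5, 373 and 339.9 FPKM in libraries labelled PELI2 knockout and 555, 409 and 399 FPKM in WT libraries. WT replicate 1 stood far above the other 2 WT libraries, and the ratio of means was 0.795 with it and 0.893 without it. The log2 fold change of Spib was -0.32 (95% interval -0.64 to 0.0065, limma adjusted p = 0.283), and -0.16 without WT replicate 1. OCA-B joins Oct-1 and Oct-2 on octamer sites of immunoglobulin promoters. Pou2af1 (ENSMUSG00000032053, chromosome 9, 51213708 to 51240080, plus strand) held 196, 198 and 191 FPKM in libraries labelled PELI2 knockout and 303, 236 and 237 FPKM in WT libraries. Its groups were 38.2 FPKM apart, and the log2 fold change was -0.40 (95% interval -0.65 to -0.15, limma adjusted p = 0.17). Gene by gene on log2(FPKM + 1), the two-sided exact permutation p was 0.1 for each of the 10, the smallest that 3 against 3 libraries can give.

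**Figure D2:**
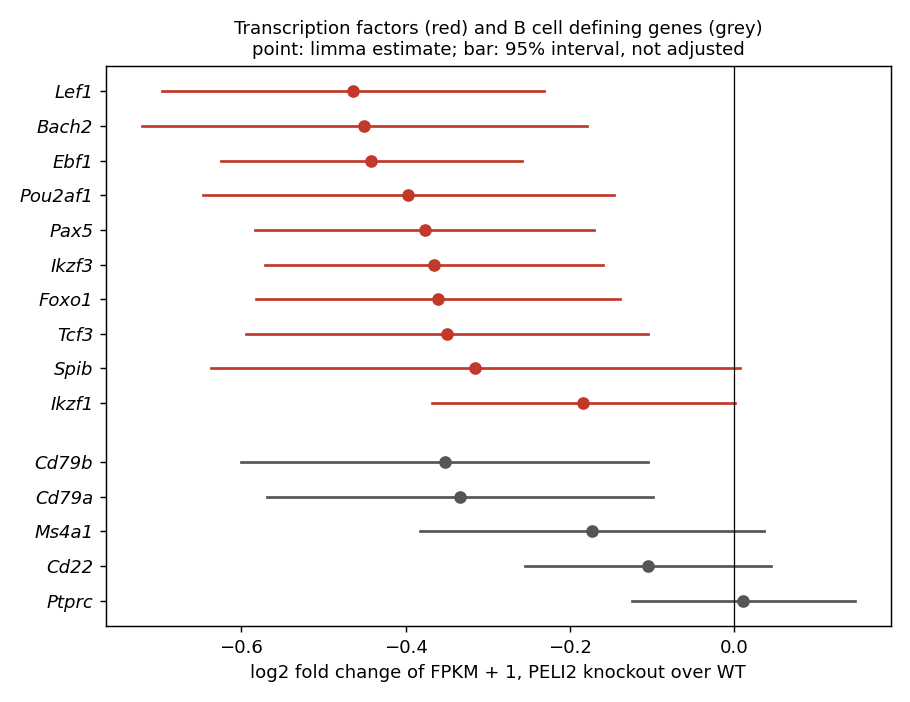
Log2 fold change of FPKM + 1, PELI2 knockout over WT, from limma, with 95% intervals not adjusted for multiple testing. Red marks the 10 factors and grey 5 genes used here to define B cells. The estimates of the factors lie between -0.46 and -0.18, and Ptprc lies at 0.01.

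Each of the 10 factors had a smaller coefficient of variation in the libraries labelled PELI2 knockout than in WT libraries, a difference that was not tested. The share of all tested genes with that difference was not computed, so it cannot be called a trait of the factors. The coefficient ran from 1.73% for Pou2af1 to 8.86% for Bach2 in the libraries labelled PELI2 knockout. In WT libraries it ran from 9.62% for Ikzf1 to 19.1% for Spib. WT replicate 1 was the highest of all libraries for 9 factors, and PELI2 knockout replicate 3 was the lowest for 9. Without WT replicate 1, 8 of the 10 were lower at an unadjusted limma p under 0.05, where 5.98% of tested genes were lower and 6.65% higher, and the median log2 fold change over the factors was -0.29.

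Markers of other cells differed between the same libraries. Each of 15 granulocyte genes, 11 monocyte genes, 11 plasmacytoid dendritic cell genes and 10 erythroid genes had a higher mean in the libraries labelled PELI2 knockout, with medians of 0.45, 0.43, 0.33 and 0.46 (log2). At an unadjusted limma p under 0.05, 10, 8, 9 and 6 of them were higher and 0 lower, and none passed over all genes. Of all 12953 tested genes, 6013 had a higher mean, and 9.2% were higher and 8.88% lower at that p. Of 13 T and NK cell genes 9 had a higher mean (median 0.06), with 2 higher and 1 lower at that p. The granulocyte list was uneven. Ctsg, Prtn3, Mpo and Elane had log2 fold changes of 1.33 to 1.65. Mmp8, Csf3r, Ly6g and Retnlg were at 0.056 to 0.13, with overlapping groups. Summed FPKM was 12212 to 14445 in the libraries labelled PELI2 knockout and 7783 to 10785 in WT libraries for granulocyte genes. For plasmacytoid dendritic cell genes it was 796 to 932 in libraries labelled PELI2 knockout and 622 to 698 in WT libraries. For T and NK cell genes it was 193 to 223 in libraries labelled PELI2 knockout and 188 to 203 in WT libraries. For monocyte genes it was 1198 to 1432 in libraries labelled PELI2 knockout and 798 to 1102 in WT libraries, and for erythroid genes 13971 to 17845 in libraries labelled PELI2 knockout and 9201 to 13422 in WT libraries. No gene of these lists was at 0 in any library, and WT replicate 1, where the factors were highest, had the lowest granulocyte, monocyte, plasmacytoid dendritic cell and erythroid means. Siglech, a lectin that marks plasmacytoid dendritic cells, stood at 109 ± 6.55 FPKM in libraries labelled PELI2 knockout and 80.1 ± 10.9 FPKM in WT libraries (SD, n = 3), the opposite direction to Spib. With a granulocyte term (the list mean) added to the limma fit, a choice made after the values were seen, the median over the factors was -0.04, 6 of 10 stayed negative and 0 had an unadjusted p under 0.05, where 3.22% of tested genes were lower and 2.49% higher at that p. The granulocyte list mean was itself apart between the groups. It was 8.11 to 8.33 in libraries labelled PELI2 knockout and 7.27 to 7.76 in WT libraries (log2). With so few libraries, this fit cannot cleanly separate the granulocyte term from the label. The part of these cells in the result was not tested.

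**Figure D3:**
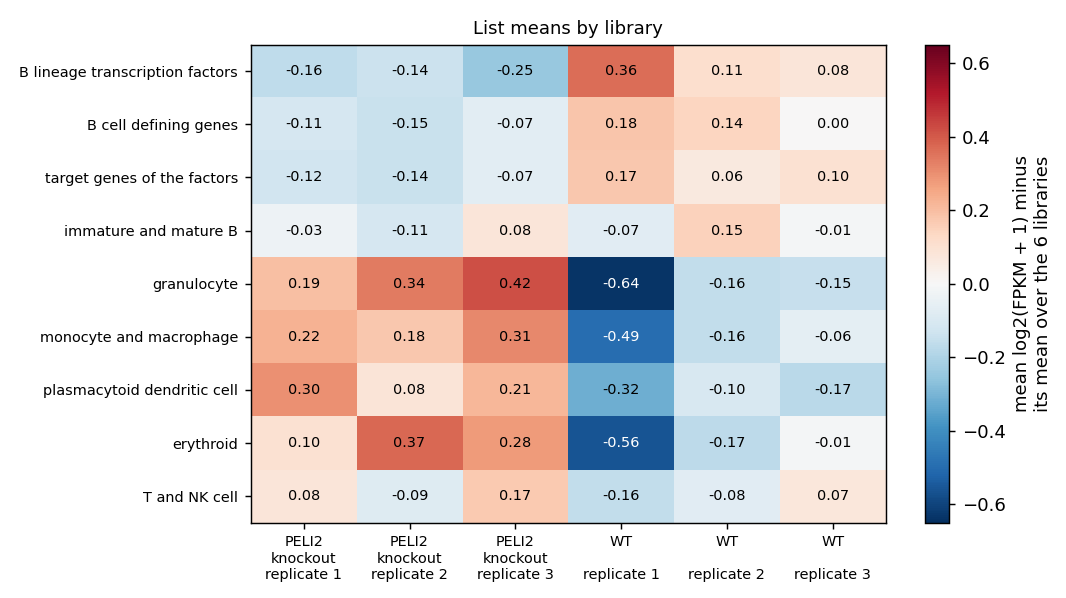
Mean log2(FPKM + 1) of each gene list in each library, less its mean over the 6 libraries, with PELI2 knockout on the left and WT on the right. The factors stand at 0.36 in WT replicate 1, where the granulocyte list stands at -0.64, and at -0.25 in PELI2 knockout replicate 3, where it stands at 0.42.

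The 6 genes used here to define B cells had a median log2 fold change of -0.25, beside -0.37 for the factors. Cd79b, a signalling chain of the B cell receptor, stood at 377 ± 16.4 FPKM in libraries labelled PELI2 knockout and 484 ± 62.5 FPKM in WT libraries (SD, n = 3). The log2 fold changes of Cd79b and Cd79a were -0.35 and -0.33, those of Ms4a1 and Cd22 were -0.17 and -0.11, and that of Ptprc was 0.01. The Ptprc row does not separate B220 from other forms of CD45, and it enters the median and the scaling below. At an unadjusted p under 0.05, 3 of these 6 genes were lower and 0 higher (limma). Over all tested genes, 8.88% were lower and 9.2% higher at that p. When all values were scaled to the mean of these 6 genes, the median over the 10 factors was -0.16 and Ebf1 alone kept an unadjusted limma p under 0.05, with a log2 fold change of -0.23 (adjusted p = 0.0965). On that scale 0.509% of tested genes were lower and 33.7% higher at that p, the median of all tested genes was 0.17, and Ikzf1 turned to 0.03. Relative to the same 6 genes, Ebf1, Pax5, Ikzf3, Bach2 and Lef1 were still apart between the groups, while Tcf3, Foxo1, Ikzf1, Spib and Pou2af1 overlapped. Some gaps were narrow. PELI2 knockout replicate 2 and WT replicate 2 stood at -0.481 and -0.454 for Pax5 (log2). They stood at -1.10 and -1.08 for Bach2 and at -4.52 and -4.49 for Lef1. The mean of the 6 genes itself differed by -0.22, less than Cd79b or Cd79a, so genes that differed like these 2 also come out lower on that scale. Of all tested genes, 0.865% were apart and lower on that scale, and 41.4% apart and higher.

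**Figure D4:**
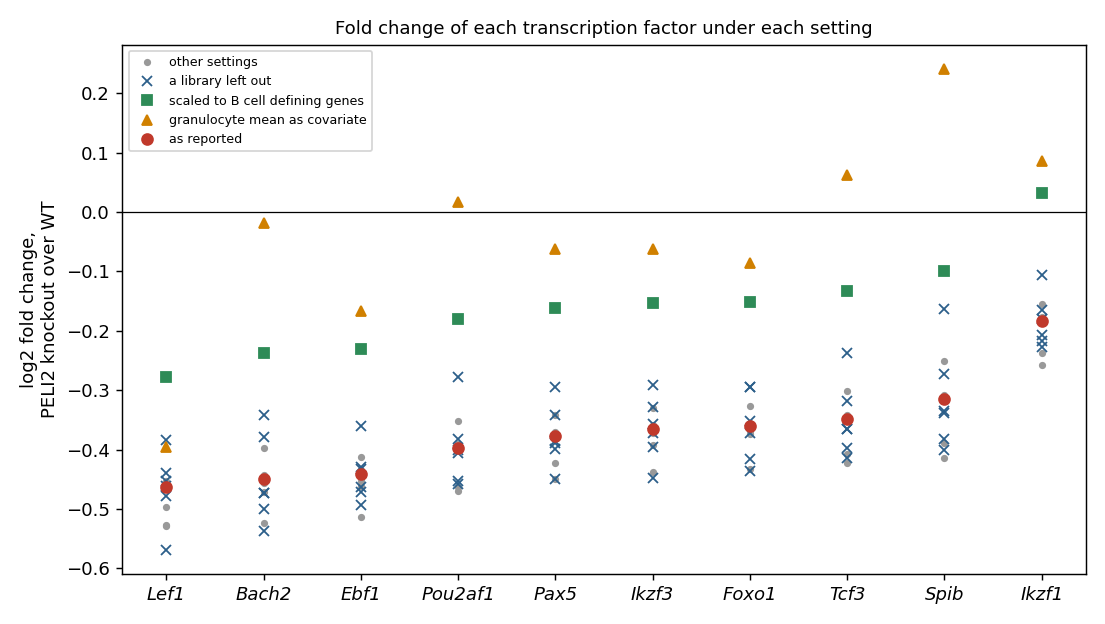
Log2 fold change of each factor, PELI2 knockout over WT, as reported (red circle), with a library left out (blue crosses), scaled to the B cell defining genes (green squares), with the granulocyte mean as a covariate (orange triangles) and under other settings (grey points). With a library left out every value stays below 0, while the scaled values lie between -0.28 and 0.03 and those with the covariate between -0.40 and 0.24.

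Ratios within a library show how unevenly the 10 factors differed. Ikzf1 was taken as the denominator after the values were seen, so the ratios are given with no test. The FPKM ratio of Ebf1 to Ikzf1 was 0.231, 0.232 and 0.235 in the libraries labelled PELI2 knockout and 0.282, 0.282 and 0.277 in WT libraries. This ratio was nearly constant inside each group although both genes were highest in WT replicate 1. For Pax5 to Ikzf1 the ratio was 0.65, 0.634 and 0.621 in the libraries labelled PELI2 knockout and 0.733, 0.753 and 0.698 in WT libraries. The log2 differences of the 9 ratios to Ikzf1, PELI2 knockout less WT, ran from -0.35 for Lef1 to -0.13 for Spib. Ikzf1 had the smallest difference of the 10, so lower mean ratios for the other 9 followed from that choice. The share of all tested genes apart on this scale was not computed, so no count of ratios apart between the groups is given.

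Relatives and inhibitors of the factors, also picked for this after the values were seen, gave mixed values, and none passed over all genes (limma adjusted p under 0.05). Spi1, which encodes PU.1 and is strong in myeloid cells, stood at 60.6 ± 1.71 FPKM in libraries labelled PELI2 knockout and 53.8 ± 0.987 FPKM in WT libraries (SD, n = 3, limma adjusted p = 0.171). The FPKM ratio of Spib to Spi1 was 6.23, 5.96 and 5.68 in the libraries labelled PELI2 knockout and 10.3, 7.76 and 7.30 in WT libraries. Bach1, Foxo3 and Tcf7, relatives of Bach2, Foxo1 and Lef1, had log2 fold changes of 0.0061, 0.017 and 0.0074. The ratio of Lef1 to Tcf7 averaged 0.746 ± 0.0317 in the libraries labelled PELI2 knockout and 1.09 ± 0.11 in WT libraries (SD, n = 3). Id2 and Id3 encode inhibitors that keep E proteins off DNA. Id3 stood at 23.3 ± 0.944 FPKM in libraries labelled PELI2 knockout and 28.8 ± 4.43 FPKM in WT libraries, and Id2 at 17.9 ± 0.924 FPKM in libraries labelled PELI2 knockout and 17.1 ± 0.277 FPKM in WT libraries (SD, n = 3). The ratio of Tcf3 to Id3 overlapped between the groups, and that of Tcf3 to Id2 was 9.46, 10.5 and 9.44 in the libraries labelled PELI2 knockout and 15, 12.1 and 12.4 in WT libraries.

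Other regulators of the lineage were mixed. Of 30 tested, 18 had a lower and 12 a higher mean in the libraries labelled PELI2 knockout, with a median log2 fold change of -0.08. At an unadjusted p under 0.05, the split was 9 lower to 3 higher, with none passing over all genes (limma adjusted p under 0.05). Of all 12953 tested genes, 6940 had a lower and 6013 a higher mean. At the same unadjusted p, 8.88% of them were lower and 9.2% higher. The 3 regulators higher at that p were Xbp1, a factor of secretory cells, Spi1 and Irf8, a factor of dendritic cells, monocytes and B cells. Irf8 stood at 152 ± 12.2 FPKM in libraries labelled PELI2 knockout and 129.6 ± 4.22 FPKM in WT libraries (SD, n = 3). Foxp1, a forkhead factor needed for early B cells, stood at 29.9 ± 1.46 FPKM in libraries labelled PELI2 knockout and 36.8 ± 3.89 FPKM in WT libraries.

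Most genes listed here as targets of the factors also had a lower mean. None of the plasma cell, granulocyte or monocyte genes listed here is among these targets. Whether a factor raises or silences a target was not taken into account. Of 27 tested, 5 of which are B cell defining genes too, 22 had a lower mean in the libraries labelled PELI2 knockout, with a median log2 fold change of -0.28. At an unadjusted p under 0.05, the split was 11 lower to 0 higher, with no target passing over all genes (limma adjusted p under 0.05). Over all tested genes, 8.88% were lower and 9.2% higher at that unadjusted p. Cplx2, a complexin, stood at 34.2 ± 1.13 FPKM in libraries labelled PELI2 knockout and 49.3 ± 8.35 FPKM in WT libraries (SD, n = 3). Blnk, the adaptor of the pre-B and B cell receptors, stood at 43.3 ± 2.94 FPKM in libraries labelled PELI2 knockout and 52.7 ± 3.29 FPKM in WT libraries. Stage markers split, and the stage lists share genes with the lists above, so their counts are not separate. Of 15 pro-B and pre-B genes 14 had a lower mean (median -0.29). Rag1, Rag2, Il7r, Dntt, Igll1, Vpreb1, Vpreb2 and Bst1 of this list are also targets above, and Myb, Sox4 and Erg other regulators above. The gene of smallest p in this list went the other way: Kit, the receptor of stem cell factor, stood at 3.90 ± 0.314 FPKM in libraries labelled PELI2 knockout and 2.91 ± 0.301 FPKM in WT libraries (SD, n = 3, limma adjusted p = 0.172). Il7r, a chain of the interleukin 7 receptor, stood at 39.4 ± 2.88 FPKM in libraries labelled PELI2 knockout and 48.4 ± 5.06 FPKM in WT libraries, and Rag1, the recombinase gene, stood at 59.0 ± 9.61 FPKM in libraries labelled PELI2 knockout and 90.6 ± 24.9 FPKM in WT libraries. Among 15 genes of immature or mature B cells 7 had a lower mean (median 0.01), and of 9 plasma cell genes 3 did (median 0.27). At an unadjusted p under 0.05 the numbers lower and higher were 5 and 1 for pro-B and pre-B genes, 3 and 0 for immature and mature genes and 2 and 3 for plasma cell genes (limma).

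**Figure D5:**
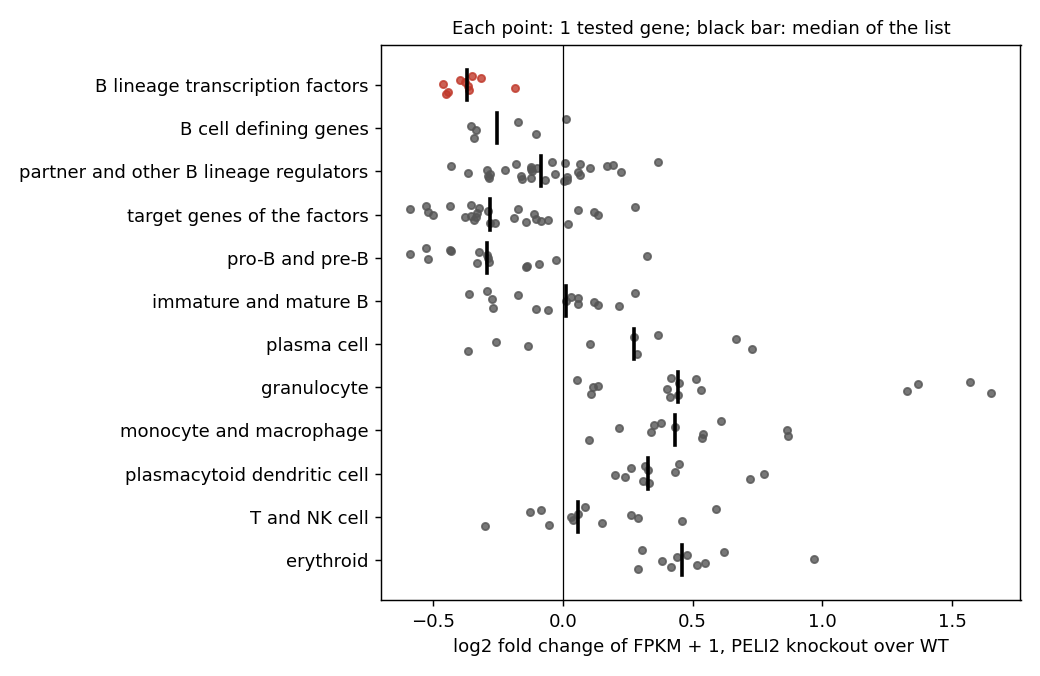
Log2 fold change of FPKM + 1, PELI2 knockout over WT, for each tested gene of each list, with a black bar at the list median. The 10 factors (red) all lie below 0 with a median of -0.37, the 30 other regulators lie on both sides with a median of -0.08, and the 15 granulocyte genes all lie above 0.

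Likeness to Ebf1 and Pax5 over the 6 libraries was ranked among 7446 genes with a mean of 5 FPKM or more. The factors themselves, predicted genes and antigen receptor segments were left out. The genes most like Ebf1 were Ablim1, Phf6 and Ift22, with Pearson r of 0.998, 0.996 and 0.995 on log2(FPKM + 1). Those most like Pax5 were Map3k1, Mtss1 and Ncoa2, at 0.998, 0.998 and 0.997. With 6 libraries in 2 groups such values are common: 621 genes had r above 0.9 with Ebf1 and 705 with Pax5. Ablim1, an actin-binding protein, stood at 26.9 ± 0.34 FPKM in libraries labelled PELI2 knockout and 34.3 ± 2.49 FPKM in WT libraries (SD, n = 3).

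Whether counting used strand is not stated, and reads of genes that share exon sequence cannot be told apart. Ebf1, Tcf3, Ikzf1, Ikzf3, Spib and Pou2af1 share no exon bases with another gene in GENCODE M21. Bach2 shares 537 of 9940 exon bases with Bach2os, which reached 7.63 FPKM at most. Lef1 shares 1208 of 8788 with Gm43352, which reached 0.516 FPKM, Pax5 shares 761 of 8853 with Gm12462 and 5730488B01Rik, and Foxo1 shares 674 of 8665 with Gm20402.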

How the data were processed

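Per the labels' protocols, total RNA of 6 samples was extracted with TRIzol, messenger RNA was selected with oligo(dT) beads and a DNBSEQ instrument read 50 bases from a single end. Per the submitters' processing notes, the build was GRCm38.p6 and the tools were RSEM 1.2.12, HISAT2 2.0.4, DESeq2 1.4.5 and Bowtie2 2.2.5, with no role given. The authors deposited 1 table of FPKM per gene, with no scaling across libraries stated. Because FPKM are not counts, no count model was run here.

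Genes with 1 FPKM or more in at least 3 libraries were fitted with limma 3.58.1 (R 4.3.3) on log2(FPKM + 1) (lmFit, eBayes with a trend, two-sided, Benjamini-Hochberg over 12953 genes, adjusted p under 0.05). This scale understates changes of low genes. The code of the fit was checked on simulated data, with genes drawn independently and changes larger than those of the factors. That check does not cover small changes shared by many genes. Depth was found as the smallest total that made low FPKM times length whole reads, within 0.03 reads, for genes with 1 annotated transcript: 99.3% to 99.5% of values under 6 reads came out whole. Of the table's IDs, 27696 are in GENCODE M21, 95.6% of them with the same coordinates. Plots were made in Python 3.11.15 with matplotlib 3.10.9.

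The members and gene lists were chosen with earlier results of these data known. Named genes are the members, Peli2, up to 4 genes of smallest p per list, and the 3 genes most like Ebf1 and Pax5; others were named after their values were seen. Tent5c had no row, and Ikzf5 and Cd3e lay under the filter. Of the 6 B cell defining genes, 1 enters the list summaries and is not reported here by itself. Alternatives were no filter or a filter of 5 FPKM, pseudocounts of 0.1 and 0.5, 4 scalings, eBayes without a trend, library weights, a replicate block and leaving out each library; a granulocyte covariate was added after seeing the data.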

Additional observations from a re-analysis of the deposited data

How the results depend on the processing

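The 10 factors kept a negative log2 fold change and stayed above an adjusted p of 0.05 (limma) in 175 of 180 refits under 18 alternatives, and 0 factors were called under any of them. The 5 reversals were Ikzf1 at 0.0319 when scaled to the B cell defining genes and, with the granulocyte covariate, Tcf3 at 0.0631, Ikzf1 at 0.0854, Spib at 0.241 and Pou2af1 at 0.0173. The factors with an unadjusted p under 0.05, 8 as reported, were 1 with that scaling and 0 with that covariate; the cause was not tested. Leaving out 1 library at a time gave 8 to 10 of them, 2 to 16 genes called higher and 0 called lower, the 16 without PELI2 knockout replicate 3. The genes called higher, 3 as reported, were 1 with a filter of 5 FPKM, 104 when scaled to the B cell defining genes and 1 with the covariate. The genes called lower, 0 as reported, were 2 without a trend and 2 when scaled to the B cell defining genes.

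At an unadjusted p under 0.05, 1192 genes were higher and 1150 lower as reported, 726 higher and 2328 lower when rescaled to a common total (where 18% of tested genes were lower, and 10 of 10 factors), and 4372 higher and 66 lower when scaled to the B cell defining genes. With the replicate number as a replicate block, 9 factors had an unadjusted p under 0.05, 0 were called, and 4 genes were called higher and 0 lower. The numbers share no stated source. Deviations of same-numbered libraries correlated at 0.101, 0.036 and 0.09, and each library correlated best with its own number, which is a hint from the data and not the design. The 95% intervals of Ikzf1 (-0.37 to 0.00084) and Spib (-0.64 to 0.0065) include 0.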
